A study of Mus musculus with 8 samples.

Results

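The genes described here are Msh3, Msh6 and Pms2 of DNA mismatch repair and Ung, Neil3, Apex1, Parp1 and Xrcc1 of base excision repair. They were chosen by gene name, with earlier results of these data known. Every probe set annotated to them was taken: 19 probe sets for 8 genes, of 45037 probe sets and 18193 genes tested. Expression was measured on Affymetrix mouse arrays in cells sorted from bone marrow for the integrin subunit Cd11b, which granulocytes and monocytes carry on their surface. The mice were 8 weeks old and of a mixed background (FVB+ C57BL6). The 4 experimental samples had the genotype Mxcre;E2F1-/-2-/-3f/f, that is E2f1 null, E2f2 null and E2f3 floxed with the Mx-Cre transgene. The 4 control samples were E2F1-/-2+/+3f/f, that is also E2f1 null with floxed E2f3, but with intact E2f2 and no Cre. Both groups thus lacked E2f1, and no sample was wild type for it. The Mx promoter that drives Cre responds to interferon in many cell types, and all mice were given 5 injections of 250 µg pIpC, an interferon inducer, on alternate days and were killed 24 h after the last. What Cre does by itself and what the loss of E2f genes does cannot be told apart here. No label states whether samples came from different animals, so p-values measure only the spread between samples, and some of that spread may be technical.

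Mismatch repair removes bases mispaired by the replication polymerase. The MutS proteins MSH3 and MSH6 recognise the error (MSH6 mainly base mismatches and short loops, MSH3 longer loops), and PMS2, a MutL endonuclease, nicks the new strand for its removal. Base excision repair starts with a glycosylase that cuts out a damaged base. UNG removes uracil, and NEIL3 removes oxidised bases from single-stranded DNA and opens crosslinks at stalled forks. APEX1 then cuts the abasic site, PARP1 senses the strand break, and XRCC1 is the scaffold for the enzymes that fill and seal it. E2F1, E2F2 and E2F3 are transcription factors that drive S phase genes, among them many genes of DNA replication and repair.

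Of the 8 genes, Neil3 was the only one past the threshold, and it fell. Values are RMA values on the log2 scale, differences are experimental minus control with the standard error of the limma fit, and the threshold was an adjusted p of 0.05 (Benjamini-Hochberg over all probe sets). Each gene stands at the probe set of highest mean. By this rule 1 of 8 genes fell, where 1.95% of all genes did, and 0 of 8 rose, where 1.53% of all genes did. At an unadjusted p of 0.05 in the same limma fit, 2 genes were higher (Msh6 and Ung) and 1 was lower (Neil3). Of all 18193 genes, 1652 were higher and 1783 lower by that measure. By probe set, 2 of 19 fell (1.55% of all probe sets) and 0 rose (1.03% of all). The median difference over the 8 genes was 0.12, against 0.01 over all genes. All 4 experimental arrays lay above all 4 controls in 1 member probe set (4.64% of all probe sets) and below them in 2 (6.15% of all), and the groups overlapped in the other 16.

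**Figure D1:**
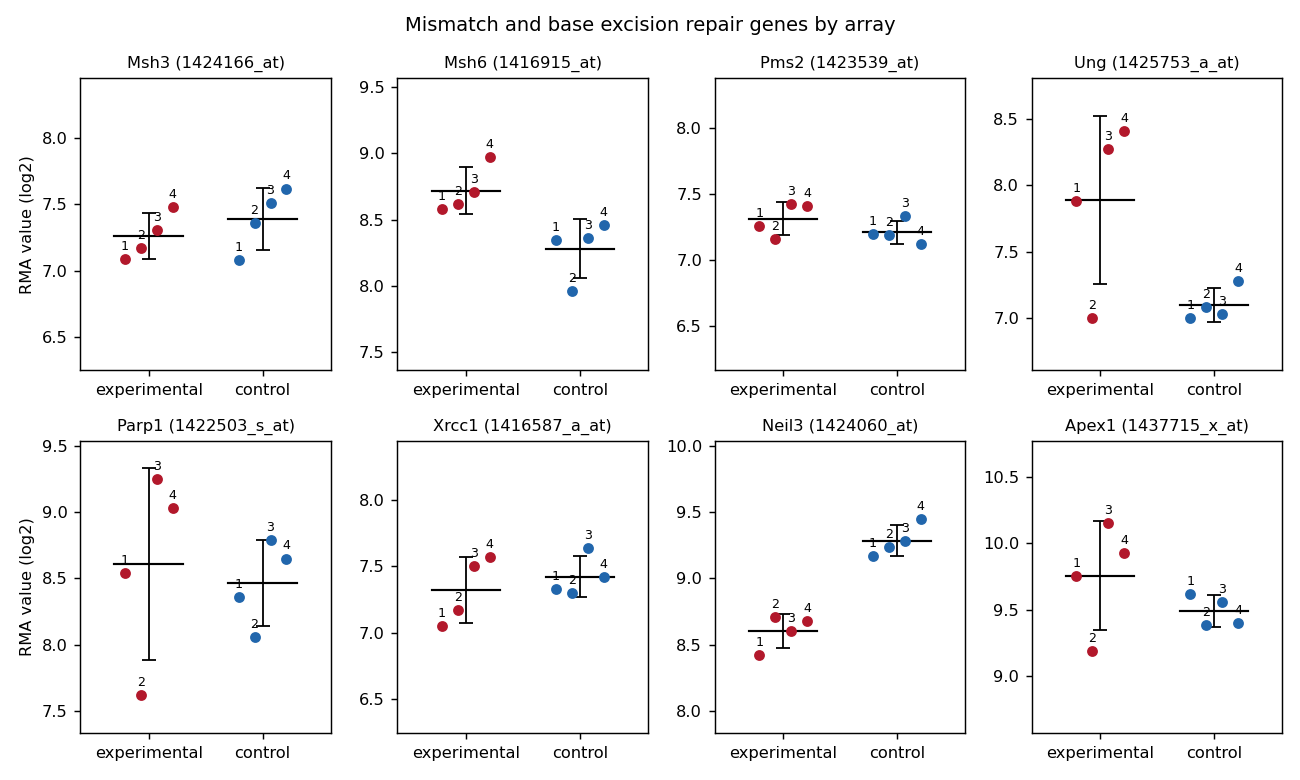
RMA values (log2) of the 8 genes, each at its probe set with the highest mean, in 4 experimental arrays (red, left) and 4 control arrays (blue, right). Digits are replicate numbers, lines are means and bars are SDs (n = 4), and every panel spans the same range. Neil3 lies lower in all experimental arrays, Msh6 lies higher in all of them, and Ung, Parp1 and Apex1 have their lowest value in experimental replicate 2.

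As a check of the series, the medians of the arrays lay between 5.01 and 5.04, which normalization between arrays brings about. Of 10 measured granulocyte and monocyte markers, none had a mean under the array medians, and the sort marker Itgam read 11.25 to 11.90 in experimental and 11.50 to 11.66 in control arrays. Of these 10 markers 1 fell, the granulocyte colony-stimulating factor receptor gene Csf3r (-0.65 ± 0.09, adjusted p = 0.00943, past the threshold whichever array was dropped), and none rose. The macrophage colony-stimulating factor receptor gene Csf1r differed by -0.64 ± 0.22 without passing (adjusted p = 0.178). The targeted E2f2 read 7.06, 7.40, 7.11 and 7.47 in experimental arrays, against 7.91, 7.82, 7.76 and 8.19 in controls at 1455790_at (difference -0.66 ± 0.13, adjusted p = 0.0351, past the threshold in 2 of the 8 limma fits that each leave out 1 array). Its brighter probe set 1436434_at differed by -0.55 ± 0.16 (adjusted p = 0.107), and neither probe set of the floxed E2f3 was lower in experimental arrays (differences of 0.29 and 0.11). E2f1, null in both groups, gave signal in both (7.44 ± 0.54 in experimental and 6.86 ± 0.16 in control arrays, SD, n = 4 each, at 1417878_at). The position of these probe sets against the deleted exons was not analysed, and probes that miss the deletion cannot check it. Without experimental replicate 2, 1744 probe sets passed the threshold, against 1162 with all arrays. The matching counts without each other array are not given here. Experimental replicate 2 was the lowest of its group in 27.1% of genes, against 28.0%, 28.7% and 16.2% for experimental replicates 1, 3 and 4.

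Neil3 read 8.42, 8.71, 8.60 and 8.68 in experimental replicates 1 to 4, against 9.17, 9.24, 9.28 and 9.45 in controls at 1424060_at. The groups were separate, with a gap between the highest experimental and the lowest control array that was wider than the range within either group. The difference was -0.68 ± 0.10 (adjusted p = 0.0117), that is 62.3% of the control level. Its other probe set, 1440633_at, read 5.90, 6.13, 5.54 and 5.58 in experimental arrays, against 6.92, 6.95, 6.32 and 6.69 in controls. Here too no experimental array reached a control, and the difference was -0.93 ± 0.17 (adjusted p = 0.0266), 52.5% of the control level. Both probe sets thus fell. The first stayed past the threshold whichever of the 8 arrays was dropped (adjusted p = 0.0154 to 0.0422). The second did so in 2 of these 8 fits, with experimental replicate 2 or control replicate 3 dropped, and its adjusted p ran between 0.0183 and 0.0884 with differences of -1.06 to -0.85.

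The sample codes in the labels come in 2 styles, a digit before a letter in replicates 1 and 2 of each group and a letter before a digit in replicates 3 and 4. At 1424060_at Neil3 differed by -0.64 in replicates 1 and 2 and by -0.72 in replicates 3 and 4, and at 1440633_at by -0.92 and -0.94 in the same order. In sorted bulk samples, fewer cells of a type and less RNA per cell cannot be told apart. Markers of other cell types moved with the group, beside the fall of Csf3r in the list of the sorted cells. Of 11 measured B cell markers 6 fell (Blnk, Cd79a, Cd79b, Fcmr, Ms4a1 and Vpreb3) and none rose, and the sum of their linear values was 878 to 1311 in experimental and 1735 to 3520 in control arrays. Of these markers 1 (Ebf1) had a mean under the array medians. Of 6 dendritic cell markers 2 fell (Cd209a and Siglech), with sums of 434 to 1055 in experimental and 953 to 1199 in control arrays. Of 5 megakaryocyte markers 2 fell (Pf4 and Ppbp), with sums of 350 to 407 in experimental and 568 to 885 in control arrays. None of 8 erythroid and none of 8 T and NK cell markers passed by limma. At an unadjusted p of 0.05 in that fit, 3 of each list were higher in experimental arrays and none was lower. Erythroid sums were 3093 to 9410 in experimental and 2863 to 3984 in control arrays. T and NK sums were 3354 to 5294 in experimental and 1603 to 6159 in control arrays. RNA integrity was read from the beta-actin control probe sets, as the 3′ minus the 5′ value, which was 0.34 to 0.54 in experimental and 0.27 to 0.32 in control arrays. The same difference for Gapdh overlapped, at -0.16 to 0.03 in experimental and -0.14 to -0.09 in control arrays. The part of these cell types and of RNA integrity in the lower Neil3 values, and in the other differences given here, was not tested.

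**Figure D2:**
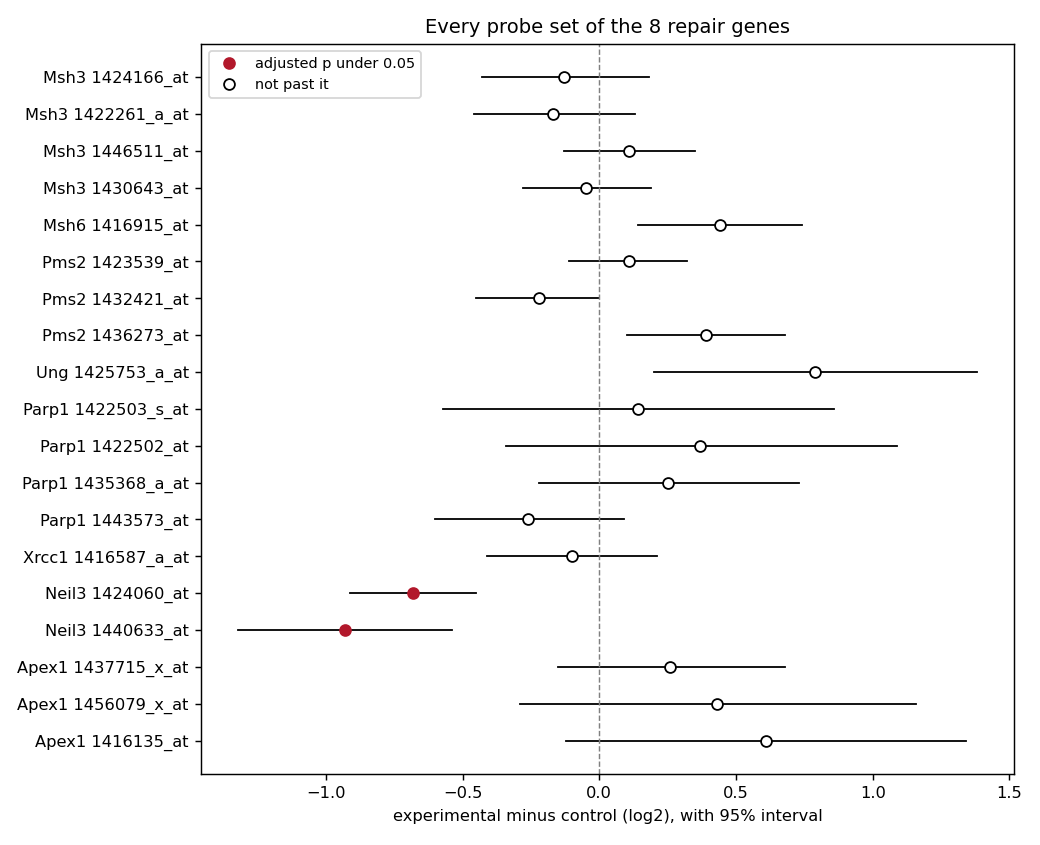
Difference, experimental minus control (log2), for each of the 19 probe sets of the 8 genes, with 95% intervals from the limma fit that are not adjusted for the number of probe sets. Filled points passed the threshold: both probe sets of Neil3, at -0.68 and -0.93, and no other.

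Sequence before the start of transcription was read for all 8 genes from RefSeq (GRCm38.p6). The windows hold 250 bases before the start and 50 after it. They were searched on both strands for forms of the E2F site (TTTCGCGC, TTTGGCGC, TTTCCCGC and TTTGCCGC) and for a pair of forms of the cell cycle homology region (TTTGAA and TTCGAA), an element known from genes that peak in G2 and mitosis. The 250 bases before the start are shown for Neil3, which fell, and for Msh6, which lay higher in every experimental array, with motif letters in capitals.
Neil3 (chr8:53639066-53639315, minus strand): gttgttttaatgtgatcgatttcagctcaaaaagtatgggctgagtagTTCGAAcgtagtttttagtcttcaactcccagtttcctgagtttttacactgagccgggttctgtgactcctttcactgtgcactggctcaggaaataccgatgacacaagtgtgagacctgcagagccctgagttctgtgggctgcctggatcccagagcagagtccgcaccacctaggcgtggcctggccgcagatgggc
Msh6 (chr17:87974800-87975049, plus strand): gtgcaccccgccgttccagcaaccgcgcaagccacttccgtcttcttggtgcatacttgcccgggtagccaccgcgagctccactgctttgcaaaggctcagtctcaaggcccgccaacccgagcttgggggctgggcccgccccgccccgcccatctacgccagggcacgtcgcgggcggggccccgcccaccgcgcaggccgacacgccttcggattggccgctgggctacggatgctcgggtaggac
The Neil3 window held no searched E2F form and 1 TTCGAA, whose first base lies 202 bases before the start. The Msh6 window held 1 E2F form, TTTCCCGC, at bases 16 to 23 after the start and so outside the printed stretch. Msh3 had a pair of E2F forms that overlap each other, TTTGGCGC from 202 bases before its start and TTTCGCGC on the other strand from 198 bases before it. Apex1 had 1 TTCGAA, 194 bases before its start, and the other 4 genes had none of the 6 forms. Of 32851 promoter windows in the table, 2.26% held at least 1 of the E2F forms and 19.2% at least 1 of the cell cycle homology forms (17.9% TTTGAA and 1.56% TTCGAA). A match is a description of letters and no evidence of a bound factor.

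Of the mismatch repair genes, Msh6 was higher in every experimental array without passing the threshold, and Msh3 and Pms2 overlapped between the groups at their brightest probe sets. Msh6 had 1 probe set and read 8.58, 8.62, 8.71 and 8.97 in experimental arrays, against 8.35, 7.96, 8.36 and 8.46 in controls. The lowest experimental array stood above the highest control by a small margin. Its difference was 0.44 ± 0.13 (135% of the control level, adjusted p = 0.128), with 0.45 within replicates 1 and 2 and 0.43 within replicates 3 and 4. With code style as a block Msh6 passed the threshold (adjusted p = 0.0492, 0.44 ± 0.11), as 3.57% of all genes did in the higher direction in that fit, and with replicate number as a block it did not (adjusted p = 0.0588).

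Msh3 read 7.09, 7.17, 7.31 and 7.48 in experimental arrays, against 7.08, 7.36, 7.51 and 7.62 in controls at 1424166_at. The groups lay over each other, with a difference of -0.13 ± 0.14 (adjusted p = 0.690) and a 95% interval of -0.43 to 0.18. Its 3 dimmer probe sets differed by -0.17, 0.11 and -0.05, none past the threshold (adjusted p = 0.572 to 0.875), and all 3 had means under 6. By code style, 1422261_a_at gave 0.06 in replicates 1 and 2, against -0.39 in replicates 3 and 4.

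Pms2 read 7.26, 7.16, 7.42 and 7.41 in experimental arrays, against 7.20, 7.19, 7.33 and 7.12 in controls at 1423539_at, a difference of 0.11 ± 0.10 (adjusted p = 0.634) with a 95% interval of -0.11 to 0.32. Its other probe sets, both with means under 6, went opposite ways. At 1436273_at the difference was 0.39 ± 0.13 (adjusted p = 0.154), with 5.36, 5.28, 5.16 and 5.51 in experimental arrays against 4.91, 4.65, 5.19 and 5.0 in controls. At 1432421_at it was -0.22 ± 0.10 (adjusted p = 0.290). The probe sets of Pms2 therefore disagreed in sign, as did those of Msh3 and Parp1. In each of these genes the probe set opposite in sign to the brightest had a mean under 6, and none passed the threshold.

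In base excision repair, Ung, Apex1 and Parp1 shared a pattern across arrays: experimental replicate 2 was the lowest of all 8 arrays in each of their 8 probe sets. The 3 genes were grouped after their values were seen, so this count is no test of the pattern. Over all 19 member probe sets, that array was the lowest in 9 (47.4%), these 8 among them. Over all probe sets tested, it was the lowest in 13.2%. Ung read 7.88, 7.0, 8.27 and 8.41 in experimental replicates 1 to 4, against 7.0, 7.08, 7.03 and 7.28 in controls. Of the experimental arrays, 3 stood above every control and replicate 2 stood level with the lowest control. The difference of Ung was 0.79 ± 0.27 (173% of the control level, adjusted p = 0.161), with 0.40 in replicates 1 and 2 and 1.18 within replicates 3 and 4. Without experimental replicate 2 it was 1.09 ± 0.14 and passed the threshold (adjusted p = 0.00904), whereas dropping any other array left it short of the threshold (adjusted p up to 0.320).

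Apex1 read 9.75, 9.19, 10.15 and 9.93 in experimental arrays, against 9.62, 9.38, 9.56 and 9.40 in controls at 1437715_x_at. Again 3 experimental arrays were above all controls and replicate 2 was below them, and the difference was 0.26 ± 0.18 (adjusted p = 0.515). At 1416135_at Apex1 read 8.31, 7.18, 8.97 and 8.59 in experimental arrays, against 7.50, 7.40, 7.97 and 7.74 in controls, a difference of 0.61 ± 0.33 (adjusted p = 0.386). The third probe set, 1456079_x_at, differed by 0.43 ± 0.32 (adjusted p = 0.548). Without experimental replicate 2 the difference was 0.97 ± 0.18 at 1416135_at (adjusted p = 0.0271) and 0.80 ± 0.17 at 1456079_x_at (adjusted p = 0.0389), both past the threshold, and 0.45 ± 0.12 at 1437715_x_at (adjusted p = 0.0772), which did not pass. In that fit 3 of the 19 member probe sets rose, those 2 and that of Ung, against 1.7% of all probe sets. Within replicates 1 and 2 the difference of Apex1 was between -0.07 and 0.30 at its 3 probe sets, and within replicates 3 and 4 between 0.56 and 0.94.

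Parp1 read 8.54, 7.62, 9.25 and 9.03 in experimental arrays, against 8.36, 8.06, 8.79 and 8.65 in controls at 1422503_s_at. The experimental arrays spanned more than the whole range of the controls, with an SD of 0.72 against 0.32, and the difference was 0.14 ± 0.32 (adjusted p = 0.871, 95% interval -0.57 to 0.86). At 1422502_at and 1435368_a_at the differences were 0.37 ± 0.32 and 0.25 ± 0.21 (adjusted p = 0.606 and 0.602). The dim probe set 1443573_at differed by -0.26 ± 0.15 (adjusted p = 0.441). Without experimental replicate 2 the 4 differences were 0.47, 0.71, 0.47 and -0.16, and none passed (adjusted p = 0.0843 to 0.630). Within replicates 1 and 2 the 3 brighter probe sets differed by -0.13, -0.02 and -0.10, and within replicates 3 and 4 by 0.42, 0.77 and 0.60.

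**Figure D3:**
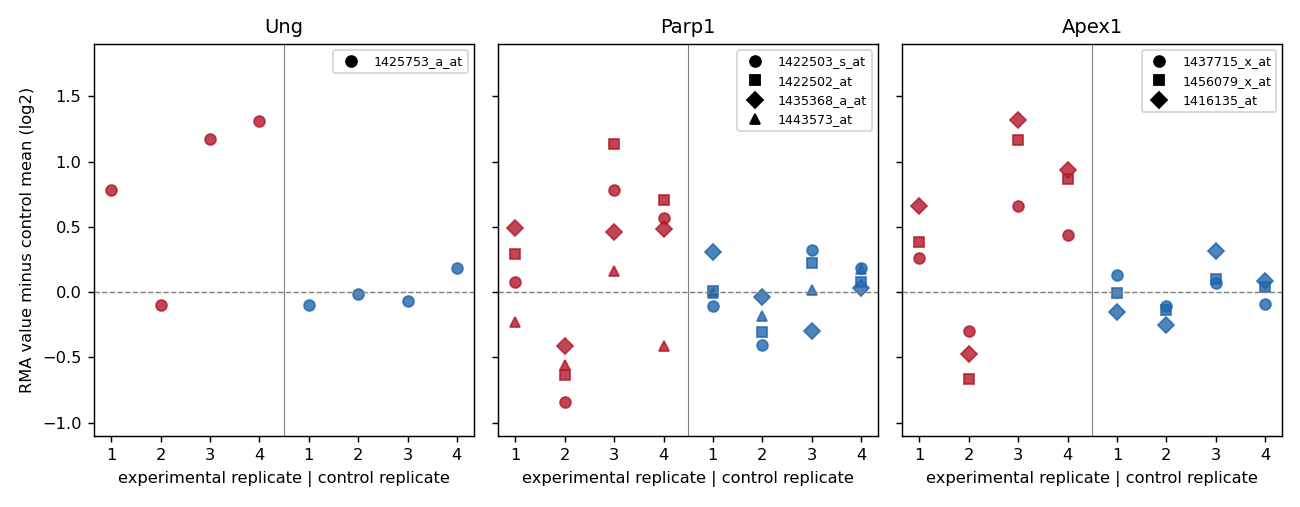
RMA value minus the mean of the control arrays (log2) for each probe set of Ung, Parp1 and Apex1 in experimental replicates 1 to 4 (red, left of the line) and control replicates 1 to 4 (blue, right of it). Symbols mark probe sets. Experimental replicate 2 is the lowest array in all 8 probe sets.

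Xrcc1 read 7.05, 7.17, 7.50 and 7.57 in experimental arrays, against 7.33, 7.30, 7.64 and 7.42 in controls. The groups overlapped, with a difference of -0.10 ± 0.14 (adjusted p = 0.762) and a 95% interval of -0.41 to 0.21. Among all 8 genes the SD over the 8 arrays was highest for Ung (0.60), Parp1 (0.52) and Neil3 (0.38) and lowest for Pms2 (0.12).

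For those 3 genes of largest SD, the profile over the 8 arrays, centred on each gene's mean, was compared with that of 16330 named genes by the root mean square difference. The nearest profile to Ung was that of Fam189b (0.130), followed by Tmem268 (0.134) and Rnaseh2a, a subunit of the enzyme that removes ribonucleotides from DNA (0.157). Nearest to Parp1 were Setd6 (0.0646), Zmynd19 (0.0774) and Rcc2 (0.0784). Nearest to Neil3 were Tmem185b (0.0929), Dhx40 (0.0950) and Zfp236 (0.0965), with differences of -0.59, -0.56 and -0.58. As these genes were chosen for profiles like that of Neil3 over the same arrays, the choice fixed the direction of those differences.

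Several members share their upstream bases with another gene. In RefSeq, the 250 bases before the start overlap another annotated gene for 6 of the 8 members, as they do for 30.1% of 27025 genes with a window in the table. Of these neighbours 4 were measured and none passed (limma, adjusted p = 0.480 to 0.995, with none at an unadjusted p of 0.05). Beside Ung lies Alkbh2, which encodes an enzyme that reverses alkylation of DNA bases. It read 4.95, 4.26, 6.08 and 6.13 in experimental arrays, against 4.59, 4.64, 4.85 and 5.02 in controls, a difference of 0.58 ± 0.38 (adjusted p = 0.480). As for Ung, experimental replicate 2 was its lowest array and replicates 3 and 4 its highest. Beside Apex1 lies Osgep, of a complex that modifies transfer RNA, with a difference of -0.05 ± 0.20 (adjusted p = 0.928). Aimp2 beside Pms2 and Pinlyp beside Xrcc1 differed by 0.06 and less than 0.01 in size (adjusted p = 0.934 and 0.995). The low value in experimental replicate 2 was not particular to Alkbh2. That array was also the lowest of all 8 for Osgep (7.50) and Aimp2 (7.87), though not for Pinlyp (3.01).

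The other genes of these pathways were taken from 3 lists. Of 5 measured genes of mismatch repair beyond the members, none passed in either direction (limma, 1 at an unadjusted p of 0.05), and the median difference was -0.11. Exo1, the exonuclease of mismatch repair, differed by 0.24 ± 0.19 (adjusted p = 0.587), and the meiotic gene Msh5 by -0.11 ± 0.10 (adjusted p = 0.618). Mlh3, a MutL gene named here after its values were seen, read 5.42, 5.52, 5.71 and 6.02 in experimental arrays, against 4.88, 5.04, 5.47 and 5.26 in controls. Its groups overlapped, and its difference of 0.50 ± 0.16 did not pass (adjusted p = 0.147), but it passed when the fit held a block for replicate number (adjusted p = 0.0441) or for code style (adjusted p = 0.0227).

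Of 18 further genes of base excision repair 1 rose and none fell, with a median difference of -0.01. Of all genes, 1.53% rose and 1.95% fell. At an unadjusted p of 0.05 in the limma fit, 1 of the 18 was higher and 4 were lower. The gene that rose was Mbd4, a glycosylase that removes thymine or uracil mispaired with guanine and so works on some of the substrates of UNG. Mbd4 read 8.27, 8.18, 8.52 and 8.83 in experimental arrays, against 7.32, 7.31, 7.90 and 7.72 in controls at 1449490_at, with no overlap. The difference was 0.88 ± 0.18 (185% of the control level, adjusted p = 0.0349), and split by code style it was 0.91 in replicates 1 and 2 and 0.86 in replicates 3 and 4. Its probe set 1457708_at rose as well (0.69 ± 0.14, adjusted p = 0.0362), while 1441079_at did not pass (0.41 ± 0.13, adjusted p = 0.149), and in all 3 every experimental array was above every control. Leaving out 1 array at a time, Mbd4 at 1449490_at passed in 2 of 8 fits, those without experimental replicate 2 and without control replicate 3 (adjusted p = 0.0266 to 0.112).

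Of 16 replication factors that also serve repair synthesis, 6 rose and none fell, where 1.53% of all genes rose. The median difference was 0.45 against 0.01 over all genes. As the list was chosen with earlier results of these data known, its excess over all genes is no test. The ligase gene Lig1 read 10.46, 10.71, 10.66 and 10.86 in experimental arrays, against 9.79, 9.49, 9.97 and 9.97 in controls. Its groups were separate, with a difference of 0.86 ± 0.13 (adjusted p = 0.0138). Rfc2, a subunit of the clamp loader, rose by 0.81 ± 0.10 (adjusted p = 0.00672). The genes of the single-strand binding protein Rpa2 (0.77 ± 0.10, adjusted p = 0.00731) and Rpa1 (0.59 ± 0.09, adjusted p = 0.0143) rose too. The flap endonuclease gene Fen1 rose by 0.64 ± 0.12 (adjusted p = 0.0271) and the polymerase gene Pold1 by 0.72 ± 0.15 (adjusted p = 0.0370), each past the threshold in only 2 of the 8 fits that leave out 1 array. The dimmer probe set of Fen1, 1421731_a_at, did not pass (0.60 ± 0.15, adjusted p = 0.0697), while those of Rfc2, Rpa1, Rpa2 and Pold1 rose as well. The clamp gene Pcna, named here after its values were seen, differed by 0.03 ± 0.10 (adjusted p = 0.929). With replicate number as a block 8 of the 16 rose, where 3.16% of all genes did, the 2 added being the clamp loader gene Rfc5 (adjusted p = 0.0293) and the polymerase gene Pole (adjusted p = 0.0263), both named here after their values were seen. Without control replicate 4, 3 of the 16 rose (Lig1, Rfc2 and Rpa2). The difference between these lists and the 8 genes was not tested.

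**Figure D4:**
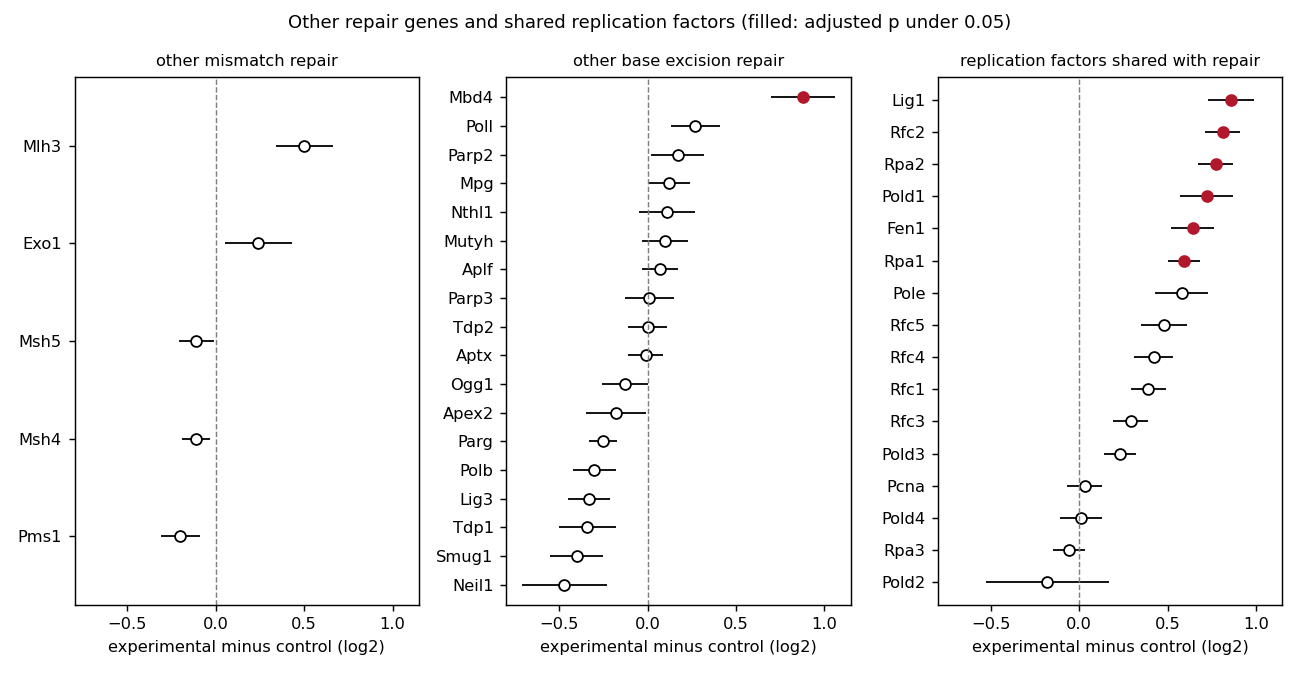
Difference, experimental minus control (log2), with standard errors of the limma fit, for the other measured genes of mismatch repair (5 genes), base excision repair (18 genes) and the replication factors shared with repair (16 genes), each at its probe set with the highest mean. Filled points passed the threshold: none in the first list, Mbd4 in the second, and Lig1, Rfc2, Rpa2, Pold1, Fen1 and Rpa1 in the third.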

How the data were processed

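The authors deposited 1 table of log2 values per probe set, made with RMA per the submitters' processing notes. RMA corrects background, normalizes quantiles between arrays and summarises probes. Its version, and whether all arrays were processed together, are not given in the sources used here. Per the labels' protocols, cRNA was made from 2.5 µg of total RNA. Of 45101 probe sets, 64 Affymetrix controls were left out. The platform annotation gave 1 gene symbol to 34945 of the rest, several to 932 and none to 9160. Experimental and control arrays were compared with limma 3.58.1 (R 4.3.3), with group as the only term, eBayes, 9.72 moderated degrees of freedom and Benjamini-Hochberg adjustment over all 45037 probe sets. Intervals are 95% intervals of that fit. The fit was also run on simulated data with the means and spreads of these arrays and independent normal noise. In each run 200 of the 45037 probe sets were changed, all drawn from those above the median level. It recovered 3.9% of 1.5-fold changes, 64.4% of 2-fold changes and 95.4% of 4-fold changes. Most changes of 1.5-fold were thus missed, so a gene that did not pass may still have changed. The number of arrays limits the precision.

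Deviations from the group means correlated at 0.20 to 0.26 in all 4 pairs of equal replicate number. Pairs of unequal number gave 0.14 to 0.26 where the code style was shared and -0.27 to -0.13 where it was not. The correlations thus do not separate pairing by number from a shared code style. The main fit held no term for either, so its calls are unpaired, and each was a block in an alternative fit.

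The members and lists were chosen with earlier results of these data known. Genes named are the members, E2f1 to E2f3, every list gene past the threshold (for a list with none, its 2 of highest mean) and the 3 profiles nearest to the 3 members of largest SD, leaving out Riken, Gm-number and predicted loci. Alternatives were median centring, quantile normalization, a mean of at least 6, trended and robust variance, the most variable probe set of a gene, the average over its probe sets, blocks for code style and for replicate number, and dropping each array. Promoter sequences are from RefSeq, GRCm38.p6, with all 8 genes matched.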

Additional observations from a re-analysis of the deposited data

Results flagged for a closer look

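In 2 of 56 groups of 4 arrays examined, among the member probe sets and the list genes named by the rule, 1 array lay far from the other 3, beyond the 95% critical value of Dixon's test. Chance gives such a gap in about 1 of 20 groups. Both were experimental replicate 2. At Parp1 1435368_a_at it read 7.42, with the other experimental arrays at 8.29 to 8.32. At Msh3 1422261_a_at it read 5.67, with the others at 5.33 to 5.36.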

How the results depend on the processing

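Neil3 kept its direction and its call under all 8 alternatives (at 1424060_at in 6, at 1440633_at as the most variable probe set, and as the mean of both) and in all 8 fits that leave out 1 array, so the number of members lower was 1 throughout. The number of members higher, 0 with all arrays, was 1 with code style as a block (Msh6) and 0 to 1 without 1 array (Ung without experimental replicate 2). By probe set, 1 rose with code style as a block, and without 1 array 0 to 3 rose and 1 to 2 fell. With replicate number as a block the number of other mismatch repair genes higher was 1, as with code style as a block (Mlh3), and it was 0 without any 1 array. The replicate block changed no call of a member, of E2f1 to E2f3 or of a list gene past the threshold without it, and its calls for the nearest profiles were not compared. Further base excision repair genes higher numbered 0 to 1 without 1 array (Mbd4), and shared replication factors higher 3 to 6. That count of 6 with all arrays was 8 under either block (Rfc5 and Pole added), 7 when the probe sets of each gene were averaged and 5 with the most variable probe set (without Fen1). The brightest probe set of Parp1 reversed to -0.07 without experimental replicate 3 (adjusted p = 0.936, range -0.07 to 0.47 without 1 array), and Msh3 at 1430643_at reversed to a difference that rounds to 0.0 in the same fit (adjusted p = 0.993, range -0.1 to 0.0 without 1 array). The causes were not tested. Probe sets with means under 6, 6 of the 19, were not tested under the filter.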
